A study of Homo sapiens with 18 samples.

Results

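Genes of MHC class I antigen presentation were followed in breast cancer cells treated with inhibitors of the cell cycle kinases CDK4 and CDK6. The set held 9 genes, taken by name from the 60656 gene rows of the count table, and each had a row. They were 4 class I heavy chains (HLA-B, HLA-C, HLA-E and HLA-F), the light chain B2M, both subunits of the peptide transporter (TAP1 and TAP2), the loading factor TAPBP (tapasin) and the immunoproteasome subunit PSMB9. The lines were CAMA-1 and ZR-75-1, established oestrogen receptor-positive breast cancer lines labelled as parental and wild type. Each line received abemaciclib at 500 nM, palbociclib at 500 nM or an equal volume of the solvent DMSO for 5 days, and each of the 6 groups had 3 libraries. The study used these libraries to ask how the transcriptome responds when both kinases are inhibited and the retinoblastoma protein is kept active.

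MHC class I molecules show peptides from inside the cell to CD8 T cells. The proteasome cuts proteins into peptides, the TAP transporter carries these into the endoplasmic reticulum, and tapasin helps to load them onto a heavy chain bound to B2M. HLA-B and HLA-C are classical heavy chains, HLA-E is a ligand of NKG2 receptors on natural killer cells, and HLA-F is a non-classical heavy chain. Transcription of these genes is raised by interferon, acting through STAT and IRF factors, and by NF-κB and NLRC5.

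RNA was measured by 3′-end sequencing (QuantSeq), which reads mainly the end of each transcript, and levels are given as normalised counts (CPM, scaled to a library's effective size by TMM over the 18 libraries). A level is thus relative to the other counts of a library, and less RNA of a gene per cell and fewer cells that make it cannot be told apart in bulk RNA. Library totals ran from 2308442 to 4146549 counts, and 3 counts, taken as the floor of detection, stood for 0.689 to 1.29 CPM on this scale. The 9 genes together took 0.0754% to 0.104% of a library's counts. The 8 luminal epithelial markers checked (EPCAM, KRT8, KRT18, KRT19, CDH1, ESR1, GATA3 and FOXA1) summed to 4711 to 7542 CPM, with none at 0 in any group. In CAMA-1, KRT8, KRT18, KRT19 and ESR1 rose with both drugs (0.50 to 0.96 on the log2 scale) and GATA3 fell (−0.15 and −0.31). In ZR-75-1, 5 of the 8 rose and 1 fell with abemaciclib, and 1 rose and 3 fell with palbociclib. The 9 immune cell markers summed to 0.722 to 11.8 CPM, and CD3E, MS4A1 and NKG7 were at 0 in every library. LYZ (lysozyme), the one immune marker tested, rose with palbociclib in ZR-75-1 (1.54 on the log2 scale). The 6 fibroblast and endothelial markers summed to 14.4 to 33.9 CPM. Of these, the collagen gene COL3A1 went from 2 to 6 counts per library of CAMA-1 to 12 to 24 under either drug (log2 fold changes 2.24 and 2.12, adjusted p = 3.0e-04 and 5.9e-04), and was at 0 in ZR-75-1. COL1A1 fell with abemaciclib in CAMA-1 (−0.58). The part of these markers in the results was not tested. The 6 cell cycle markers summed to 2207 to 2513 CPM with DMSO, 176 to 447 with abemaciclib and 634 to 1016 with palbociclib. All 6 fell in the fits against DMSO, apart from palbociclib in ZR-75-1, where 4 of 6 fell. The mitochondrial share of counts moved with treatment in CAMA-1, from 14.8% to 16.6% with DMSO to 22.9% to 26.1% with either drug. In ZR-75-1 it was 17.3% to 22.6% with DMSO and 18.5% to 20.5% with either drug.

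All members but B2M lie in the MHC region of chromosome 6. In GENCODE annotation of GRCh38, HLA-F spans chr6:29722775-29738528, HLA-E chr6:30489509-30494194, HLA-C chr6:31268749-31272130 and HLA-B chr6:31353872-31367067. TAP2 spans chr6:32821833-32838739, PSMB9 chr6:32844136-32859851, TAP1 chr6:32845209-32853816 and TAPBP chr6:33299694-33314284, while B2M lies at chr15:44711358-44718851. All are protein coding. TAP1 and PSMB9 are transcribed away from each other, with RefSeq start sites 488 bases apart. Heavy chain genes resemble each other and are highly polymorphic, so their counts are less certain than those of other genes. In the last 500 bases of the reference transcripts, 2.88% of the 50-base windows of HLA-B were shared with HLA-C, and none of HLA-E or HLA-F was shared with another heavy chain compared. No window of 100 bases was shared among HLA-B, HLA-C, HLA-E and HLA-F. Antisense genes overlap the last 500 exon bases of TAP1 (PSMB8-AS1, 0 to 2 counts per library), HLA-F (HLA-F-AS1, 0 to 8 counts) and TAPBP (a gene with no row in the count table), and an antisense gene with 0 counts overlaps HLA-B further upstream. A gene on the same strand, with 0 counts in every library, covers 2023 of the 5643 exon bases of TAP2, but none of its last 500. Whether the counting used strand, and how it treated reads over 2 genes, was not stated. The alleles that each line carries were not examined, and their part in the difference between lines was not tested.

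Promoters were read for the 8 members with a RefSeq entry (GRCh38.p14) as the 250 bases before the start site, since several members moved together. The first 4 listed are of members that rose in CAMA-1 with both drugs, and PSMB9 is shown as the gene that shares its upstream region with TAP1. The promoters of HLA-F, which also rose with both drugs, TAP2 and B2M were read but are not shown. Capitals mark matches on either strand to AANNGAAA, the core of an interferon-stimulated response element, or to GGGNNTTCC, a kappaB-type site. Overlapping matches run together, as in TAP1 and TAPBP.
HLA-B (chr6:31357180-31357429, minus strand): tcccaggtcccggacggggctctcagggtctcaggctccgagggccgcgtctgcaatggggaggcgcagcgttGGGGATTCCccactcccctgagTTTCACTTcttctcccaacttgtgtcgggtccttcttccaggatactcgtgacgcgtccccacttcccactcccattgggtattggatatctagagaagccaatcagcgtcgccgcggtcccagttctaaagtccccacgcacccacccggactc
HLA-C (chr6:31272093-31272342, minus strand): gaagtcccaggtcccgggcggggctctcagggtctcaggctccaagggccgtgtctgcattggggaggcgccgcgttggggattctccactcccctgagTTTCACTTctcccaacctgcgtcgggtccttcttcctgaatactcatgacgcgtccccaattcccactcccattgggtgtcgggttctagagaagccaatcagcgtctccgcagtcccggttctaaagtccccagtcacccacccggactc
TAPBP (chr6:33314079-33314328, minus strand): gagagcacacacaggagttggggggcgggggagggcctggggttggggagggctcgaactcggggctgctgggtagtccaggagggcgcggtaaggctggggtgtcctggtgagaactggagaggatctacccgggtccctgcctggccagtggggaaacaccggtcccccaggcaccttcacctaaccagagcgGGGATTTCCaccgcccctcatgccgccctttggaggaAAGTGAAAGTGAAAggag
TAP1 (chr6:32853705-32853954, minus strand): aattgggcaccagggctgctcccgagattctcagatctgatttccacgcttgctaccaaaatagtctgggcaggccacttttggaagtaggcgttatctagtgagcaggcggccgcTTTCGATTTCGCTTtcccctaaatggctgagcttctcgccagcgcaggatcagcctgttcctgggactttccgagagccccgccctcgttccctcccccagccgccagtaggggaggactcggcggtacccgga
PSMB9 (chr6:32853942-32854191, plus strand): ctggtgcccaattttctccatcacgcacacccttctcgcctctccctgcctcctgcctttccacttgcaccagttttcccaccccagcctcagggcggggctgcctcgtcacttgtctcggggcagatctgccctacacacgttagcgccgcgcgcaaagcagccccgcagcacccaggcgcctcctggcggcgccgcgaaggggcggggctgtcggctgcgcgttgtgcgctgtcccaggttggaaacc

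The response element core was found in 7 of 8 member promoters, all but that of PSMB9, and in 20.6% of 27305 RefSeq promoters read over the same length. These 7 include TAP2, which passed the test against DMSO with neither drug in either line, and which holds overlapping matches as TAP1 does. The bases read for PSMB9 stop short of the TAP1 matches, which lie between the start sites of TAP1 and PSMB9. The kappaB-type letters were in the promoters of HLA-B and TAPBP and in 5.81% of all. Letters of this fixed length miss the longer run gggactttcc, which is in the TAP1 promoter and, on the other strand, in that of B2M. The share of promoters with the longer run was not counted. CCAAT was in 6 of 8 members (33.0% of all promoters), TGACG in 5 (21.7%) and GGGCGG in 5 (42.3%). The E2F-type letters TTCGCGC were in none of the 8 and in 1.93% of all. These letters were chosen with the sequences in view, both strands were searched, and a match is a description of the sequence.

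In CAMA-1, most members rose with either inhibitor. With abemaciclib 6 of the 8 tested members rose and none fell (edgeR quasi-likelihood test, adjusted p under 0.05), where 20.3% of 11053 tested genes rose and 20.1% fell. Palbociclib raised 5 of 8 and lowered none, against 18.4% higher and 18.7% lower among all genes. The members' median log2 fold change was 0.65 with abemaciclib and 0.55 with palbociclib, while that of all tested genes was 0.010 and 0.0011. In ZR-75-1 fewer members passed the test. Abemaciclib raised 3 of 8 and lowered none in this line (17.9% and 18.3% of 11017 genes), and palbociclib raised 2 and lowered none (14.5% and 13.4%). The medians in ZR-75-1 were 7.2e-04 and 0.13, against −0.0037 and −0.0080 for all genes. HLA-F and TAPBP rose in all 4 comparisons. Both drug comparisons of a line use the same DMSO libraries. The mitochondrial share of counts, given above, differed between DMSO and drug libraries in CAMA-1. The fit was repeated without mitochondrial genes, and 6 and 5 members were again called higher.

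**Figure D1:**
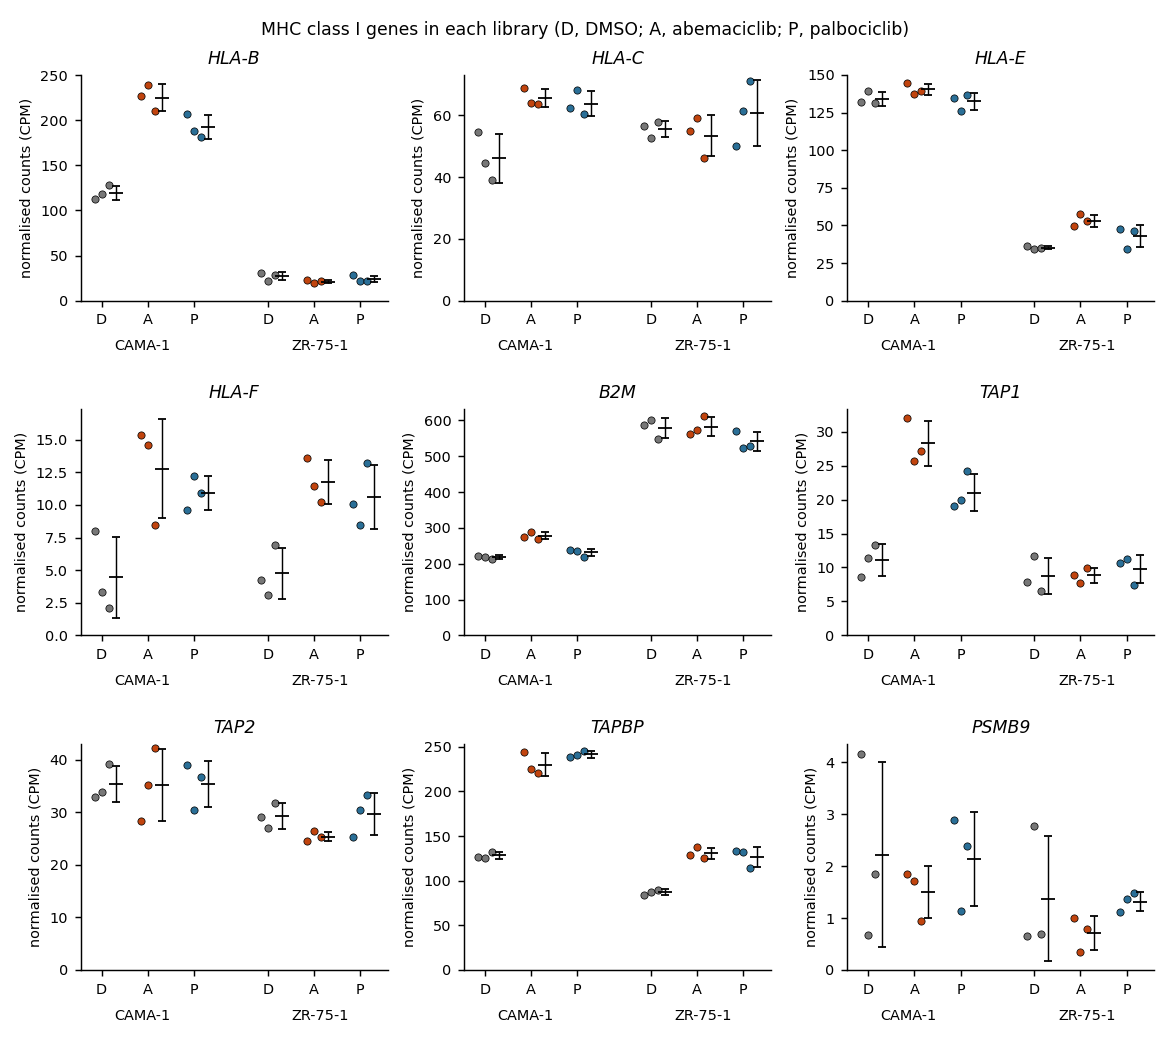
Normalised counts (CPM, linear axis from 0) of the 9 members in each library, by line and treatment; points are libraries, and the bar beside them is the mean ± SD of 3 libraries. HLA-B, TAP1 and TAPBP in CAMA-1 have drug libraries above every DMSO library, whereas HLA-B and TAP1 in ZR-75-1 have groups that overlap.

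HLA-B, a classical heavy chain, rose with both drugs in CAMA-1 and passed the test with neither in ZR-75-1. In CAMA-1 its level was 112, 118 and 128 CPM in the DMSO libraries, 227, 239 and 209.9 with abemaciclib and 207, 188 and 182 with palbociclib. All 6 drug libraries lay above all 3 DMSO libraries. The means were 119.6 ± 7.99, 225 ± 14.4 and 193 ± 13.1 CPM (SD, n = 3 libraries, as in all means below). The rise was 1.83-fold with abemaciclib (log2 fold change 0.88 ± 0.0838 (SE), adjusted p = 1.2e-11) and 1.57-fold with palbociclib (0.65 ± 0.0837 (SE), adjusted p = 2.2e-08). In ZR-75-1 HLA-B stood at 31.1, 22.4 and 29.0 CPM with DMSO, 22.6, 19.1 and 22.1 with abemaciclib and 28.1, 21.7 and 21.8 with palbociclib. The groups overlapped there, and neither log2 fold change passed the test (−0.38 ± 0.187 (SE), adjusted p = 0.11, and −0.20 ± 0.180 (SE), adjusted p = 0.45). Without DMSO replicate 2 of ZR-75-1, the lowest of the DMSO libraries, the abemaciclib value was −0.51 and passed the test (adjusted p = 0.046).

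HLA-C rose in CAMA-1 by a smaller amount. It was at 54.6, 44.5 and 39.1 CPM with DMSO, 68.8, 63.9 and 63.7 under abemaciclib and 62.3, 68.3 and 60.5 under palbociclib. Every drug library was above every DMSO library, with DMSO replicate 1 the nearest to them. The log2 fold change was 0.49 ± 0.123 (SE), adjusted p = 0.0013 with abemaciclib and 0.45 ± 0.122 (SE), adjusted p = 0.0030 with palbociclib. ZR-75-1 held 56.7, 52.8 and 57.7 CPM of HLA-C with DMSO, 55.1, 59.0 and 46.2 under abemaciclib and 49.9, 61.4 and 71.3 under palbociclib, and these groups overlapped. Neither drug passed the test in that line (log2 fold change −0.062 ± 0.131 (SE), adjusted p = 0.76, and 0.12 ± 0.127 (SE), adjusted p = 0.52).

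HLA-E differed from HLA-B and HLA-C in where it rose. In CAMA-1 it stood at 132, 139 and 131 CPM with DMSO, 145, 137 and 139 with abemaciclib and 135, 126 and 137 with palbociclib. These groups overlapped, and the log2 fold changes were 0.038 (95% interval −0.13 to 0.21) and −0.049 (95% interval −0.22 to 0.12), neither past the threshold. ZR-75-1 had 36.3, 34.7 and 34.9 CPM with DMSO and 49.4, 57.3 and 52.9 with abemaciclib, and these did not overlap. This 1.50-fold rise passed the test (log2 fold change 0.58 ± 0.142 (SE), adjusted p = 7.4e-04). With palbociclib HLA-E was at 48.0, 34.6 and 46.5 CPM, and replicate 2 lay among the DMSO libraries. Palbociclib did not pass the test (0.29 ± 0.142 (SE), adjusted p = 0.13) unless that library was left out (0.41, adjusted p = 0.038).

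HLA-F, the tested member with the fewest counts, rose in both lines with both drugs. Its levels in CAMA-1 were 7.99, 3.35 and 2.07 CPM with DMSO, 15.4, 14.6 and 8.43 with abemaciclib and 9.63, 12.2 and 10.9 with palbociclib. ZR-75-1 had 4.26, 3.07 and 6.91 CPM with DMSO, 13.6, 11.5 and 10.3 under abemaciclib and 10.1, 8.48 and 13.3 under palbociclib. In each line the drug libraries lay above the DMSO libraries, which held 9 to 25 counts of this gene. The rise in CAMA-1 was 2.90-fold with abemaciclib (log2 fold change 1.54 ± 0.344 (SE), adjusted p = 3.4e-04) and 2.47-fold with palbociclib (1.31 ± 0.346 (SE), adjusted p = 0.0024). ZR-75-1 gave rises of 2.49-fold (1.32 ± 0.330 (SE), adjusted p = 0.0010) and 2.25-fold (1.17 ± 0.328 (SE), adjusted p = 0.0046). The size in CAMA-1 depended on DMSO replicate 1, the highest of its group: without it the log2 fold changes were 2.24 and 2.01.

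B2M, the light chain shared by all class I molecules, moved little. CAMA-1 held 223, 219.7 and 213 CPM with DMSO, 275, 288 and 269.9 with abemaciclib and 239.7, 236 and 220.1 with palbociclib. The abemaciclib libraries stood above both other groups, whereas palbociclib overlapped with DMSO. Abemaciclib raised B2M 1.24-fold (log2 fold change 0.32 ± 0.0732 (SE), adjusted p = 5.2e-04), and the palbociclib value was 0.058 ± 0.0733 (SE), adjusted p = 0.58. In ZR-75-1 B2M was at 586, 602 and 549 CPM with DMSO, 563, 574 and 612 with abemaciclib and 571, 524 and 529.9 with palbociclib. Neither drug passed the test in ZR-75-1, with log2 fold changes of 0.0013 (95% interval −0.14 to 0.14) and −0.10 (95% interval −0.24 to 0.035).

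The transporter subunits TAP1 and TAP2, which work as a heterodimer, behaved differently. TAP1 in CAMA-1 went from 8.62, 11.4 and 13.3 CPM with DMSO to 32.0, 25.7 and 27.2 with abemaciclib and 19.0, 19.9 and 24.1 with palbociclib. No drug library overlapped with DMSO. The rise was 2.47-fold with abemaciclib (log2 fold change 1.31 ± 0.200 (SE), adjusted p = 8.3e-07) and 1.81-fold with palbociclib (0.86 ± 0.205 (SE), adjusted p = 8.0e-04). In ZR-75-1 TAP1 was at 7.86, 11.7 and 6.56 CPM with DMSO, 8.96, 7.64 and 9.87 with abemaciclib and 10.7, 11.2 and 7.36 with palbociclib, all overlapping. Its log2 fold change there was 1.3e-04 (95% interval −0.78 to 0.78) with abemaciclib and 0.14 (95% interval −0.45 to 0.74) with palbociclib, neither past the threshold. The libraries of that line held 19 to 38 counts of TAP1.

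TAP2 passed the test in none of the 4 comparisons. CAMA-1 libraries held 32.9, 33.8 and 39.3 CPM with DMSO, 28.3, 35.2 and 42.2 with abemaciclib and 39.0, 30.4 and 36.7 with palbociclib. ZR-75-1 had 29.1, 27.0 and 31.8 CPM with DMSO, 24.6, 26.4 and 25.3 under abemaciclib and 25.2, 30.5 and 33.3 under palbociclib. DMSO and palbociclib libraries overlapped in both lines, and in ZR-75-1 the 3 abemaciclib libraries were below the 3 DMSO libraries. Log2 fold changes were −0.053 (95% interval −0.36 to 0.26) and −0.035 (95% interval −0.34 to 0.27) in CAMA-1. The ZR-75-1 values were −0.21 (95% interval −0.55 to 0.13) and 0.014 (95% interval −0.32 to 0.34).

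TAPBP, which encodes tapasin, rose in both lines with small spread between libraries. In CAMA-1 it went from 126, 126 and 133 CPM with DMSO to 244, 225 and 221 with abemaciclib and 238, 241 and 245 with palbociclib. The levels in ZR-75-1 went from 83.5, 87.7 and 89.8 to 129, 138 and 125 with abemaciclib and 134, 132 and 114 with palbociclib. All drug libraries lay above the DMSO libraries of their line. The rises in CAMA-1 were 1.76-fold (log2 fold change 0.81 ± 0.0781 (SE), adjusted p = 1.4e-11) with abemaciclib and 1.84-fold (0.88 ± 0.0773 (SE), adjusted p = 1.4e-12) with palbociclib. Those in ZR-75-1 were 1.49-fold (0.58 ± 0.0965 (SE), adjusted p = 2.0e-06) and 1.45-fold (0.54 ± 0.0954 (SE), adjusted p = 1.1e-05).

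PSMB9, an interferon-inducible catalytic subunit of the immunoproteasome, had 1 to 13 counts per library and was removed by the filter on low counts, so no test was made. Its levels were 4.15, 0.670 and 1.84 CPM with DMSO, 1.85, 1.72 and 0.937 with abemaciclib and, for palbociclib, 2.89, 1.14 and 2.38 in CAMA-1. ZR-75-1 had 0.655, 2.76 and 0.691 CPM with DMSO, 0.995, 0.347 and 0.789 under abemaciclib and 1.12, 1.36 and 1.47 under palbociclib. Drug and DMSO libraries overlapped in both lines. Fitted without the filter, the log2 fold change in CAMA-1 was −0.57 with abemaciclib (95% interval −1.84 to 0.71) and −0.056 with palbociclib (−1.24 to 1.13).

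**Figure D2:**
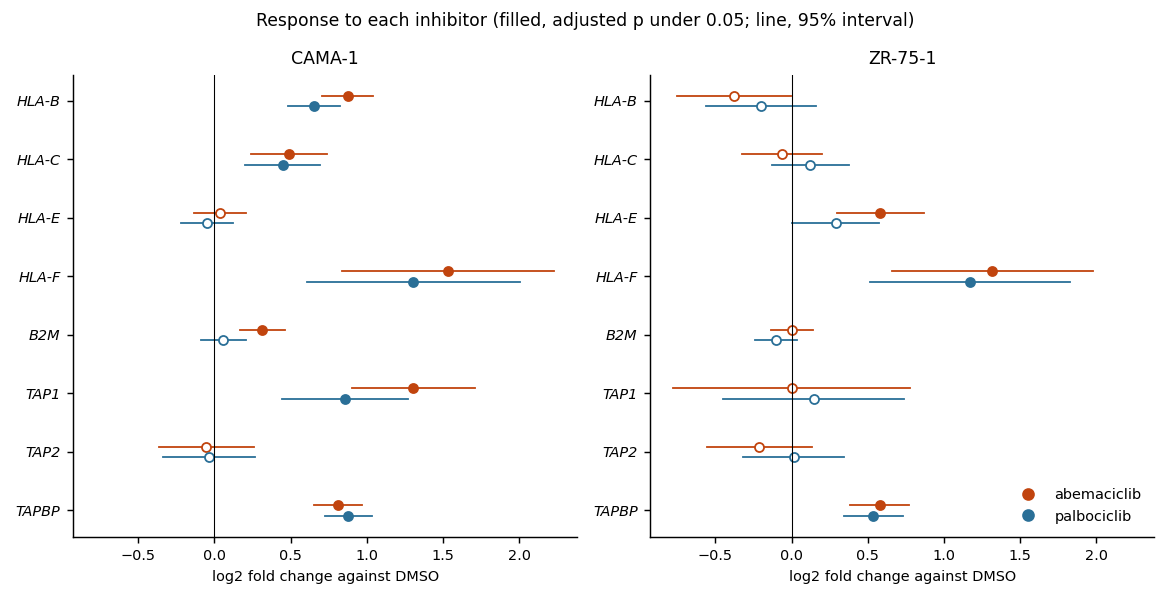
Log2 fold change against DMSO of the 8 tested members (points) with 95% intervals (lines), by line and drug; filled points have an adjusted p under 0.05. HLA-F and TAPBP are filled for both drugs in both lines, HLA-B, HLA-C and TAP1 for both drugs in CAMA-1 alone, and HLA-E for abemaciclib in ZR-75-1 alone.

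The drugs were compared directly at the matched dose of 500 nM and the matched time of 5 days. Of 8 members in each of 2 lines, 1 passed the test: B2M in CAMA-1 was 1.20-fold higher with abemaciclib than with palbociclib (log2 fold change 0.26 ± 0.0728 (SE), adjusted p = 0.046). Over all genes 0.796% were higher with abemaciclib and 1.53% lower in this line. The B2M call was lost with DESeq2 (adjusted p = 0.052), with RLE (0.0501) or upper-quartile normalisation (0.061), without the filter (0.072), and when any 1 of the 6 drug libraries of CAMA-1 was left out (0.083 to 0.23). In CAMA-1, TAP1 gave 0.45 (95% interval 0.079 to 0.82; adjusted p = 0.25), HLA-F 0.23 (95% interval −0.37 to 0.83; adjusted p = 0.82) and HLA-B 0.22 (95% interval 0.059 to 0.38; adjusted p = 0.17). Intervals for HLA-C (−0.20 to 0.28), HLA-E (−0.083 to 0.26), TAP2 (−0.33 to 0.29) and TAPBP (−0.22 to 0.083) covered 0. In ZR-75-1 no member passed the test in either direction with edgeR, where 5.23% of genes were higher and 7.94% lower. At an unadjusted p under 0.05, 1 member of ZR-75-1 differed, HLA-E, with a log2 fold change of 0.29 (95% interval 0.020 to 0.57; adjusted p = 0.16), and DESeq2 called 0 members.

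Whether the lines responded differently was tested as an interaction in a fit over all 18 libraries. With abemaciclib, 4 members responded less in ZR-75-1 than in CAMA-1 and 1 responded more, where 10.0% and 8.19% of 11987 genes did so. HLA-B had a difference of log2 fold changes of −1.27 ± 0.181 (SE), adjusted p = 1.2e-07, and this call was kept when any 1 library was left out. TAP1 differed by −1.33 ± 0.356 (SE), adjusted p = 0.0044; without DMSO replicate 2 of ZR-75-1 it was −0.999 (adjusted p = 0.067). HLA-E was the member that responded more in ZR-75-1 (0.52 ± 0.155 (SE), adjusted p = 0.012), and it was called in all 12 fits with a library left out. HLA-C (−0.58 ± 0.183 (SE), adjusted p = 0.019) and B2M (−0.34 ± 0.0976 (SE), adjusted p = 0.0092) were also called.

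The HLA-C and B2M calls each rested on several single libraries. HLA-C was no longer called without abemaciclib replicate 1 or 2 or DMSO replicate 2 or 3 of CAMA-1, or without abemaciclib replicate 1 or 3 of ZR-75-1 (−0.54 to −0.41, adjusted p 0.0503 to 0.14). B2M was no longer called without abemaciclib replicate 2 or DMSO replicate 2 or 3 of CAMA-1, or without abemaciclib replicate 1 or DMSO replicate 2 of ZR-75-1 (−0.29 to −0.25, adjusted p 0.0504 to 0.099). For HLA-F, with −0.24 (95% interval −1.24 to 0.76), TAP2, with −0.18 (95% interval −0.64 to 0.28), and TAPBP, with −0.26 (95% interval −0.50 to −0.013), the abemaciclib responses of the lines did not differ past the threshold.

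With palbociclib, 2 members responded less in ZR-75-1 and none responded more, against 10.3% and 10.0% of all genes. They were HLA-B (−0.88 ± 0.174 (SE), adjusted p = 9.2e-05) and TAPBP (−0.37 ± 0.121 (SE), adjusted p = 0.022). HLA-B was called in all 12 fits with a library left out. TAPBP was not called without the filter (−0.38, adjusted p = 0.0502) or in 8 of the 12 fits. These left out DMSO replicate 1 or 2 of CAMA-1, any palbociclib library of CAMA-1, DMSO replicate 2 or 3 of ZR-75-1, or palbociclib replicate 3 of ZR-75-1 (−0.35 to −0.26, adjusted p 0.058 to 0.15). TAPBP itself rose with palbociclib in both lines, as given above. TAP1 gave −0.74 (95% interval −1.44 to −0.045; adjusted p = 0.13), and HLA-C −0.35 (95% interval −0.71 to 0.0035), neither past the threshold. B2M (95% interval −0.38 to 0.0087), HLA-F (95% interval −1.15 to 0.84) and TAP2 (95% interval −0.42 to 0.47) did not pass it either. HLA-E gave 0.31 (adjusted p = 0.16), and it passed the test without palbociclib replicate 2 of ZR-75-1 (0.44, adjusted p = 0.043).

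**Figure D3:**
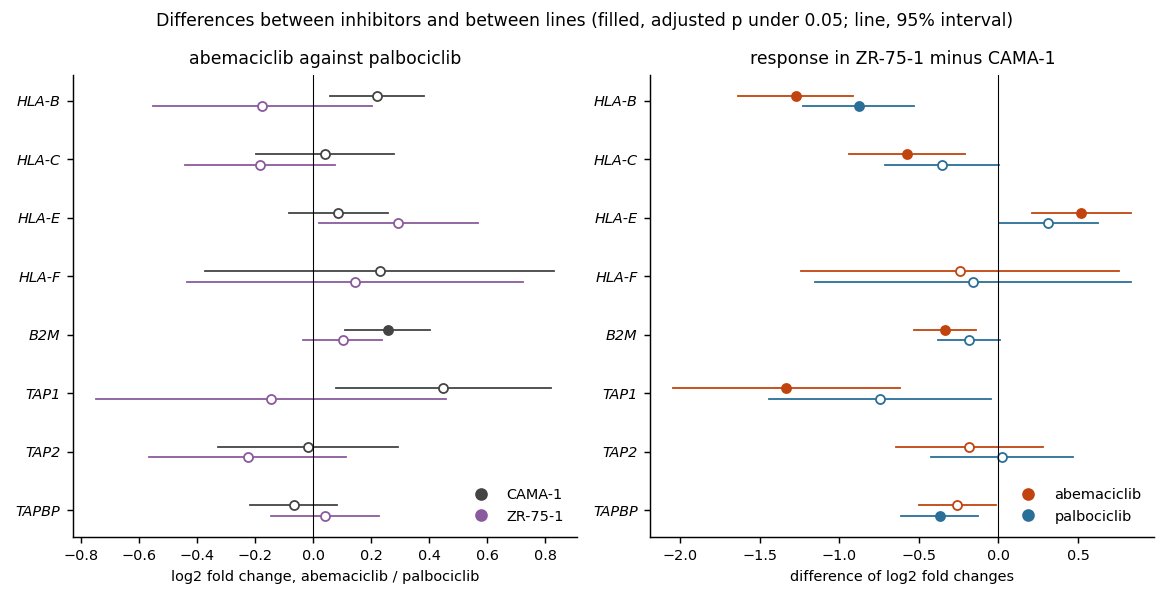
Left, log2 fold change between abemaciclib and palbociclib in each line; right, the ZR-75-1 response less the CAMA-1 response (log2) for each drug. Points are estimates for the 8 tested members, lines are 95% intervals and filled points have an adjusted p under 0.05; HLA-B lies furthest below 0 on the right for palbociclib, and HLA-B and TAP1 do so for abemaciclib.

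The lines also differed without drug. With DMSO, 3 of 8 members were lower in ZR-75-1 than in CAMA-1 and 1 was higher, where 29.8% of all genes were lower and 31.5% higher. HLA-B was at 27.5 ± 4.55 CPM in ZR-75-1 and 119.6 ± 7.99 in CAMA-1 (log2 fold change −2.13 ± 0.118 (SE), adjusted p = 2.1e-24). HLA-E was at 35.3 ± 0.912 and 134 ± 4.49 CPM (−1.92 ± 0.110 (SE), adjusted p = 9.1e-24). TAPBP was lower by less, at 87.0 ± 3.22 and 128 ± 3.78 CPM (−0.56 ± 0.0892 (SE), adjusted p = 1.7e-07). B2M went the other way, with 579 ± 27.0 CPM in ZR-75-1 and 218 ± 4.92 in CAMA-1 (1.41 ± 0.0697 (SE), adjusted p = 7.3e-27). The order of groups for HLA-B was therefore every CAMA-1 group above every ZR-75-1 group, with the 3 ZR-75-1 groups overlapping, and for B2M it was the reverse.

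HLA-C, HLA-F, TAP1 and TAP2 did not pass the test between the DMSO groups. HLA-C gave 0.28 ± 0.130 (SE), adjusted p = 0.053, and was called higher in ZR-75-1 with RLE (0.29, adjusted p = 0.046) or upper-quartile normalisation (0.32, adjusted p = 0.027) and without DMSO replicate 1 of CAMA-1 (0.37, adjusted p = 0.024). TAP1 gave −0.36 ± 0.258 (SE), adjusted p = 0.23, and was called lower without DMSO replicate 2 of ZR-75-1 (−0.69, adjusted p = 0.043). HLA-F differed by 0.13 (95% interval −0.67 to 0.92) and TAP2 by −0.28 (95% interval −0.60 to 0.035).

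Other genes of the pathway were taken from lists. Each list's counts are to be read against the shares of all tested genes, which in CAMA-1 were 20.3% higher and 20.1% lower with abemaciclib and 18.4% higher and 18.7% lower with palbociclib. In ZR-75-1 they were 17.9% higher and 18.3% lower, and 14.5% higher and 13.4% lower. HLA-G had 0 or 1 count per library and was not tested. Among class I-like proteins, 3 of 4 tested rose with abemaciclib in CAMA-1, MR1 (1.61), HFE (0.72) and MICB (0.30). With palbociclib 1 of 4 rose, MR1 (1.68). In ZR-75-1 none of 3 tested passed the test with abemaciclib and 1 rose with palbociclib, MICB (0.43). The medians of these genes were 0.51 and 0.23 for CAMA-1, then −0.060 and 0.43 for ZR-75-1.

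The listed genes of heavy chain folding and peptide loading moved with drug mainly in ZR-75-1, unlike the heavy chains HLA-B and HLA-C. This list leaves out the members TAPBP, which rose in both lines, and TAP1, which passed the test in CAMA-1 alone. The list held CALR, CANX and PDIA3, which are chaperones of the loading complex or of folding, the tapasin relative TAPBPL and the chaperone HSPA5. In ZR-75-1, abemaciclib raised 4 of 5, with log2 fold changes of 0.64 for HSPA5, 0.56 for CALR, 0.40 for PDIA3 and 0.31 for CANX. Palbociclib also raised 4 of 5, TAPBPL by 0.94, HSPA5 by 0.75, CALR by 0.66 and PDIA3 by 0.29. In CAMA-1, abemaciclib raised 1 (CALR, 0.24) and palbociclib lowered 1 (CANX, −0.18). For CAMA-1 the list's medians were 0.15 and 0.052, and for ZR-75-1 they were 0.53 and 0.66. In the interaction, 4 of 5 responded more in ZR-75-1 with abemaciclib (8.19% of all genes) and 3 of 5 with palbociclib (10.0%); CALR differed by 0.29 ± 0.0964 (SE), adjusted p = 0.027 and by 0.58 ± 0.0959 (SE), adjusted p = 3.2e-06.

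Proteasome genes were counted next. Median log2 fold changes of the other immunoproteasome and PA28 genes were −0.15 and −0.25 for CAMA-1, then 0.13 and 0.20 for ZR-75-1, abemaciclib first here and in the pairs that follow. PSMB8, the partner of PSMB9 in the immunoproteasome, was tested in ZR-75-1 alone, where neither drug passed the test. POMP, the proteasome assembly factor, fell in all 4 comparisons, by 0.54 and 0.53 on the log2 scale in CAMA-1 and by 0.26 and 0.21 in ZR-75-1. The PA28 activator subunits PSME1 (0.30) and PSME2 (0.42) rose with abemaciclib in ZR-75-1, and PSME2 (0.41) and PSME3 (0.29) with palbociclib. In CAMA-1 PSME2 fell with palbociclib (−0.31). Of the constitutive subunits that the immunoproteasome replaces, PSMB6 and PSMB7 fell in all 4 comparisons, and the medians of these 3 genes were −0.57, −0.61, −0.43 and −0.25. The log2 fold changes of PSMB6 were −0.83 and −0.78 for CAMA-1, then −0.54 and −0.28 for ZR-75-1, while PSMB5 rose in ZR-75-1 with palbociclib (0.27). Of the peptidases that trim peptides, LNPEP rose with both drugs in CAMA-1 (0.52 and 0.52) and with abemaciclib in ZR-75-1 (0.41), and THOP1 fell in CAMA-1 (−0.37 and −0.36). The medians of this list were 0.18 and −0.19 for CAMA-1, then 0.31 and 0.26 for ZR-75-1.

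Regulators of class I transcription were measured beside their targets. In CAMA-1, 6 of 16 tested rose and 2 fell with abemaciclib (all genes, 20.3% higher and 20.1% lower), and 6 rose and 3 fell with palbociclib (18.4% higher and 18.7% lower). IRF1, an interferon-induced activator of class I promoters, went from 10.5, 6.36 and 10.8 CPM to 33.6, 31.3 and 25.6 with abemaciclib (log2 fold change 1.65 ± 0.202 (SE), adjusted p = 6.3e-09) and 29.4, 27.6 and 26.5 with palbociclib (1.54 ± 0.201 (SE), adjusted p = 3.4e-08). STAT3, a transcription factor of cytokine signalling, rose by 0.89 and 1.05 on the log2 scale. IRF9 rose with abemaciclib (2.12), but from few counts: 12, 2 and 1 in the DMSO libraries and 18, 16 and 27 with abemaciclib. RFX5, a subunit of the complex on class I promoters, rose with palbociclib (0.67). RFXANK, another subunit of that complex, fell with both drugs (−0.45 and −0.34).

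In ZR-75-1, 2 of 14 regulators rose and 2 fell with abemaciclib, close to the shares of all genes (17.9% higher and 18.3% lower), and 1 rose and 3 fell with palbociclib (14.5% higher and 13.4% lower). IRF1 stood at 13.8, 12.6 and 10.0 CPM with DMSO, 16.6, 8.34 and 14.2 with abemaciclib and 10.9, 8.82 and 11.5 with palbociclib, and neither drug passed the test. Its response differed between the lines with abemaciclib (−1.58 ± 0.332 (SE), adjusted p = 2.6e-04) and with palbociclib (−1.78 ± 0.333 (SE), adjusted p = 3.4e-05). STAT3 rose with both drugs (0.69 and 0.75). The regulators' medians were 0.24 and 0.26 for CAMA-1, then 4.9e-04 and −0.17 for ZR-75-1. NLRC5 had 0 to 8 counts per library and was not tested.

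Interferon-stimulated genes were counted as a further list. In CAMA-1, 14 of 26 tested rose and 1 fell with each drug (all genes, 20.3% higher and 20.1% lower with abemaciclib, 18.4% and 18.7% with palbociclib). The largest rises with abemaciclib were those of the chemokine CCL5 (3.08), the guanylate-binding protein GBP2 (2.51) and IFI6 (2.46), and OAS3 fell (−0.84). In ZR-75-1, 5 of 20 rose and 5 fell with abemaciclib (all genes, 17.9% higher and 18.3% lower). With palbociclib 6 rose and none fell (14.5% higher and 13.4% lower). OAS2 (2.01), LGALS3BP (1.60) and IFI6 (0.88) rose most with abemaciclib in this line, whereas GBP2 (−2.01), OAS3 (−1.63) and the RNA sensor IFIH1 (−1.04) fell. The list's median was 0.69 (abemaciclib) and 0.71 (palbociclib) for CAMA-1, and 0.025 and 0.0089 for ZR-75-1. A list of interferon receptors and kinases also held SOCS1, SOCS3 and PTPN2, which are negative regulators of this signalling. Of the tested genes of this mixed list, 5 of 9 rose with each drug in CAMA-1, among them SOCS3 (1.19 and 1.24) and JAK1 (1.03 and 0.95). JAK1 was the one of 8 that rose in ZR-75-1 (1.43 and 1.45), and PTPN2 fell with palbociclib (−0.51). The medians of this mixed list were 0.80 and 0.62 for CAMA-1, then 0.21 and 0.020 for ZR-75-1. Of 12 class II genes, none was tested in CAMA-1, and HLA-DQB1, tested in ZR-75-1, rose with abemaciclib (0.86).

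**Figure D4:**
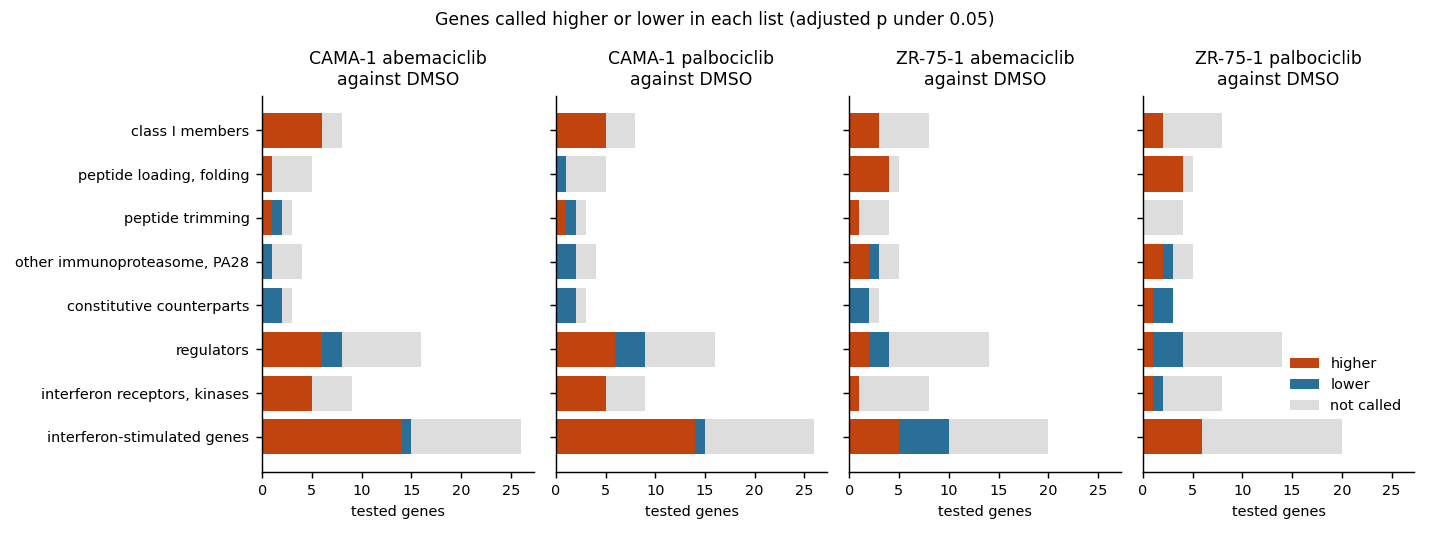
Number of tested genes called higher (red), called lower (blue) or not called (grey) at an adjusted p under 0.05, for the class I members and 7 lists of related genes, in the 4 comparisons with DMSO. In CAMA-1 14 of 26 interferon-stimulated genes rose with each drug, and in ZR-75-1 4 of 5 genes in the list of peptide loading and folding did, a list without the members TAPBP and TAP1.

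The genes whose pattern was most like the mean of the 8 tested members were found by Pearson's r over the 18 libraries, with log2 CPM centred within each line, among the 10864 genes whose mean count reached 10. They were ZNF703 (0.982), HELZ2 (0.980), DBNDD1 (0.967), PIK3R1 (0.965) and PMEPA1 (0.965). HELZ2, for example, was at 18.2 CPM with DMSO, 57.9 with abemaciclib and 46.5 with palbociclib in CAMA-1, and at 18.5, 27.5 and 29.3 CPM in ZR-75-1 (means of 3 libraries). The libraries form treatment groups and share their depth with all genes in them, so these values describe a shared pattern of group means. Members did not all follow their mean. Over the 9 libraries of a line, r between pairs of members ran from −0.41 to 0.97 in CAMA-1. In ZR-75-1 it ran from −0.80 (B2M and HLA-C) to 0.82 (HLA-F and TAPBP).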

How the data were processed

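Libraries of 3′-end messenger RNA (QuantSeq) were sequenced, 18 in all and 3 for each of 2 lines and 3 treatments. Per the study's methods and the submitters' processing notes, the authors trimmed reads, aligned them to hg38 with STAR 2.7.5b and counted them over GENCODE genes with featureCounts 2.0.1. The deposited values are raw counts per gene. Labels and methods name kits of opposite strand, and the use of strand, reads with several alignments, molecular identifiers and alternate MHC haplotypes in the counting are not given in the sources used here. The study describes the 3 libraries of a group as independent biological replicates, and p-values measure the spread between them.

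Counts were fitted with edgeR 4.0.16 (R 4.3.3; TMM, filterByExpr, quasi-likelihood test) over the 9 libraries of a line. Interactions and the DMSO contrast were fitted over all 18. P-values were adjusted by Benjamini-Hochberg over all genes tested (11053, 11017 and 11987) and called under 0.05. CPM values use the 18-library scale, so a fold from a line's fit can differ slightly from a ratio of CPM. Intervals of single counts cover counting error only. Replicates differed beyond sampling noise in every group (chi-square per degree of freedom 1.83 to 5.18). All 9 members are named in every comparison; from other lists the text gives counts and, of called genes, at most 3 in each direction, or any gene of the heavy chain, loading, trimming, proteasome and regulator lists; single-gene results of some listed genes are not reported here. The members and lists were chosen with earlier results of these data known. Alternatives were DESeq2 1.42.0, RLE and upper-quartile normalisation, no filter, no mitochondrial genes, all 18 libraries in the fit, a replicate block and leaving out each library. The fits were tested on simulated data. Samples were grouped by the line, treatment and replicate in their titles.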

Additional observations from a re-analysis of the deposited data

Results flagged for a closer look

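The response differed between CAMA-1 and ZR-75-1 for 5 members with abemaciclib and 2 with palbociclib, by a test of the interaction (edgeR, adjusted p under 0.05). Over all genes tested, 10.0% responded less in ZR-75-1 and 8.19% more with abemaciclib, and 10.3% and 10.0% did so with palbociclib. Values are the ZR-75-1 response less the CAMA-1 response on the log2 scale. With abemaciclib they were −1.27 for HLA-B, −1.33 for TAP1, −0.58 for HLA-C, −0.34 for B2M and 0.52 for HLA-E. With palbociclib they were −0.88 for HLA-B and −0.37 for TAPBP. The calls of TAP1, HLA-C and B2M with abemaciclib and of TAPBP with palbociclib were lost when certain single libraries were left out, as given above. In each line the fold changes of a gene share 3 DMSO libraries. The mitochondrial share of counts was 14.8% to 16.6% with DMSO and 22.9% to 26.1% with drug in CAMA-1. For ZR-75-1 it was 17.3% to 22.6% with DMSO and 18.5% to 20.5% with drug. Its part in these differences was not tested beyond the fit without mitochondrial genes, in which the calls were the same.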

How the results depend on the processing

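Member calls against DMSO kept their direction and their side of the threshold under DESeq2, RLE and upper-quartile normalisation, no filter, no mitochondrial genes and 18 libraries in the fit. With 1 library left out, the number of members called higher stayed at 6 and 5 in CAMA-1, was 3 in ZR-75-1 with abemaciclib and ran from 2 to 3 with palbociclib; the number lower in ZR-75-1 with abemaciclib ran from 0 to 1. Between the drugs in CAMA-1, the 1 member called (B2M) became 0 with DESeq2, RLE, upper quartile, no filter, the replicate block and with any of the 6 drug libraries left out (DMSO libraries were not left out in this comparison). Members responding less in ZR-75-1 ran from 2 to 4 with abemaciclib and from 1 to 2 with palbociclib when a library was left out, and was 1 without the filter for palbociclib; those responding more with palbociclib ran from 0 to 1. Between DMSO groups the members called higher became 2 with RLE or upper-quartile normalisation and ran from 1 to 2 with a library left out, and those lower from 3 to 4. Signs changed for uncalled values near 0 when a library was left out: for CAMA-1 abemaciclib against DMSO, TAP2 −0.22 to 0.11; for CAMA-1 palbociclib against DMSO, TAP2 −0.12 to 0.063; for ZR-75-1 abemaciclib against DMSO, HLA-C −0.13 to 0.031, B2M −0.033 to 0.029 and TAP1 −0.16 to 0.28; for ZR-75-1 palbociclib against DMSO, HLA-C −0.014 to 0.25, TAP1 −0.022 to 0.42 and TAP2 −0.083 to 0.12; for CAMA-1 abemaciclib against palbociclib, TAP2 −0.18 to 0.14; for ZR-75-1 abemaciclib against palbociclib, TAPBP −0.023 to 0.090; for abemaciclib response in ZR-75-1 minus CAMA-1, HLA-F −0.89 to 0.22 and TAP2 −0.33 to 0.033; for palbociclib response in ZR-75-1 minus CAMA-1, HLA-F −0.83 to 0.28 and TAP2 −0.042 to 0.14; for DMSO level in ZR-75-1 against CAMA-1, HLA-F −0.32 to 0.78. TAP2 with palbociclib in ZR-75-1 was −0.0044 with upper-quartile normalisation. The cause of these changes was not tested.

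Replicate numbers showed no sign of pairing by 1 measure: same-numbered libraries of a line had deviations from their group means that correlated at −0.061 to 0.021. Counting noise also lowers such values, so they do not settle whether the libraries were paired. The replicate block gave B2M between the drugs in CAMA-1 a log2 fold change of 0.26 (edgeR, adjusted p = 0.058) and changed no other member call; over all genes, calls went from 4457 to 4358 for abemaciclib and from 4102 to 3994 for palbociclib in CAMA-1. Low counts limit PSMB9, HLA-F and TAP1 among the members, and other genes such as IRF9.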
